A study of Homo sapiens with 6 samples.

Results

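The miR-21 hairpin was described here through its 3 entries in the small RNA tables of BEAS-2B cells, a widely used line of human bronchial epithelium that was immortalised with viral genes. The entries were hsa-miR-21-5p and hsa-miR-21-3p, the mature arms, and RF00658, the Rfam family of the mir-21 precursor. These are 3 of 4212 entries of all classes, and all 3 had reads in each of the 6 libraries. They were chosen by measured values: miR-21-5p by its counts, as the most abundant miRNA, and RF00658 by its reads in 1 control library. MiR-21-3p was taken as the opposite arm. The levels of miR-21-5p and RF00658, and their fitted fold changes, are therefore given as descriptions, with no test. The cells had received pcDNA-PRMT1, a plasmid expressing the arginine methyltransferase PRMT1 (PRMT1 over-expression, n = 3), or the empty plasmid pcDNA3.1 (control, n = 3), each for 48 h. All libraries were from the same cell line, and whether replicates came from separate cultures is not stated. The p-values below therefore speak of the spread among these 6 libraries, which may be technical. Whether the plasmids were stably held is not stated, and the level of PRMT1 itself was not analysed here, since the tables list small RNA features.

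MiRNAs are cut from hairpin precursors by the nucleases DROSHA and DICER into a duplex, of which one strand, the guide, is loaded onto an Argonaute protein while the passenger strand is mostly degraded. Bases 2 to 8 of the guide, the seed, pair with target messenger RNAs. MiR-21-5p is the guide of its hairpin. It represses the tumour suppressor PDCD4, is transcribed in response to STAT3 and AP-1, is abundant in epithelial cell lines and is linked to fibrosis of the lung. PRMT1 deposits asymmetric dimethylarginine on histones and RNA-binding proteins. The comparison asked how the small RNAs of these cells respond to PRMT1.

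The MIR21 hairpin of RefSeq (GRCh38.p14) lies on the plus strand at chr17:59841266-59841337, inside the VMP1 locus. In GENCODE release 29 it falls in an exon of a VMP1 transcript with a retained intron. The hairpin is shown because both arms derive from it, with miR-21-5p, its bases 8 to 29, in capitals. The precursor reads were assigned to the Rfam family of this hairpin, and their locus of origin was not tested. The mature sequences of miR-21-5p (chr17:59841273-59841294) and of miR-590-5p (chr7:74191213-74191234, plus strand) follow with the seed in capitals. MiR-590-5p is the other name that shared this 7-base seed among 2545 mature entries of the RefSeq table.
MIR21 hairpin: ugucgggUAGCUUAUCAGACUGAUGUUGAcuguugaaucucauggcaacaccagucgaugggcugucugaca
hsa-miR-21-5p: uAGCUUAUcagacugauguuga
hsa-miR-590-5p: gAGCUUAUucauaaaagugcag

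Library totals ran from 23.95 M to 25.79 M counts. Control library 2 differed from the other libraries in composition. Known miRNAs made up 65.5% of its counts, against 46.2% to 60.0% elsewhere, and reads from exons, introns, intergenic sequence and repeats made up 23.3%, against 34.3% to 40.4%. Fold changes of the members are given with and without it. All 7 miRNAs of the epithelial marker list were detected. They summed to 8170 to 8815 counts per 1000000 known miRNA counts (CPM) in PRMT1 libraries and 7674 to 10057 CPM in control libraries. Most of this sum came from miR-200a-3p, miR-429 and miR-200b-3p. After library scaling, miR-200c-3p, miR-141-3p and miR-205-5p averaged only 47.6, 21.4 and 7.92 CPM in PRMT1 libraries. In control libraries they averaged 49.0, 19.4 and 4.82 CPM. Neural markers summed to 2251 to 2856 CPM in PRMT1 libraries and 2357 to 2720 CPM in control libraries. Most of that was miR-138-5p. After library scaling, miR-124-3p was at 12.5, 15.3 and 42.0 CPM in PRMT1 libraries 1 to 3. In control libraries 1 to 3 it was at 15.1, 11.9 and 13.8 CPM. Endothelial markers summed to 1701 to 2383 CPM in PRMT1 libraries and 1576 to 2106 CPM in control libraries. Pluripotency markers summed to at most 0.208 CPM.

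MiR-21-5p was the most abundant miRNA in each of the 6 libraries. It had 8214371, 7031685 and 7036983 counts in PRMT1 libraries 1 to 3, and 6591103, 10847053 and 5699377 counts in control libraries 1 to 3. It took 56.9%, 59.1% and 58.0% of known miRNA counts in PRMT1 libraries, against 53.2%, 66.0% and 49.4% in control libraries. The PRMT1 libraries lay close together, and the control libraries lay on both sides of them. The SD of this share was 1.06 percentage points in PRMT1 libraries and 8.73 in control libraries (n = 3 each). Counting error was far smaller, since the widest Wilson 95% interval of such a share was 0.0577 percentage points.

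Against all counts of the library the order of the PRMT1 libraries changed. MiR-21-5p made up 34.2%, 27.3% and 29.4% of all counts in PRMT1 libraries 1 to 3, and 26.9%, 43.2% and 23.7% in control libraries 1 to 3. The remaining known miRNAs together made up 25.8%, 18.9% and 21.3% of all counts in PRMT1 libraries, against 23.7%, 22.2% and 24.3% in control libraries. In control library 2 the share of these other miRNAs was thus inside the range of the other libraries, whereas the share of miR-21-5p was the highest of the 6.

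The gap between miR-21-5p and the next miRNA was wide. Its count was 18.7, 22.9 and 18.9 times that of the second most abundant miRNA in PRMT1 libraries 1 to 3, where let-7i-5p, let-7i-5p and miR-27a-3p came second. It was 19.3, 25.2 and 6.47 times in control libraries 1 to 3, where let-7a-5p, let-7i-5p and miR-24-3p came second. The lowest of these values goes with miR-24-3p, which had 880994 counts in control library 3. The 9 miRNAs that followed miR-21-5p by mean level were let-7i-5p, let-7a-5p, miR-24-3p, miR-27a-3p, miR-16-5p, miR-222-3p, miR-100-5p, miR-146a-5p and let-7f-5p. As shares of known miRNA counts, these stood in control library 2 at 0.377 (miR-27a-3p) to 1.01 (let-7i-5p) times the median of the other 5 libraries, and miR-21-5p at 1.16 times. Such shares fall when miR-21-5p rises, since it is part of the total. With miR-21-5p taken out of the total, the 9 miRNAs stood at 0.561 (miR-27a-3p) to 1.25 (let-7i-5p) times. MiR-24-3p was then at 0.937 times, and the rest were at 1.03 (miR-146a-5p) times or more.

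**Figure D1:**
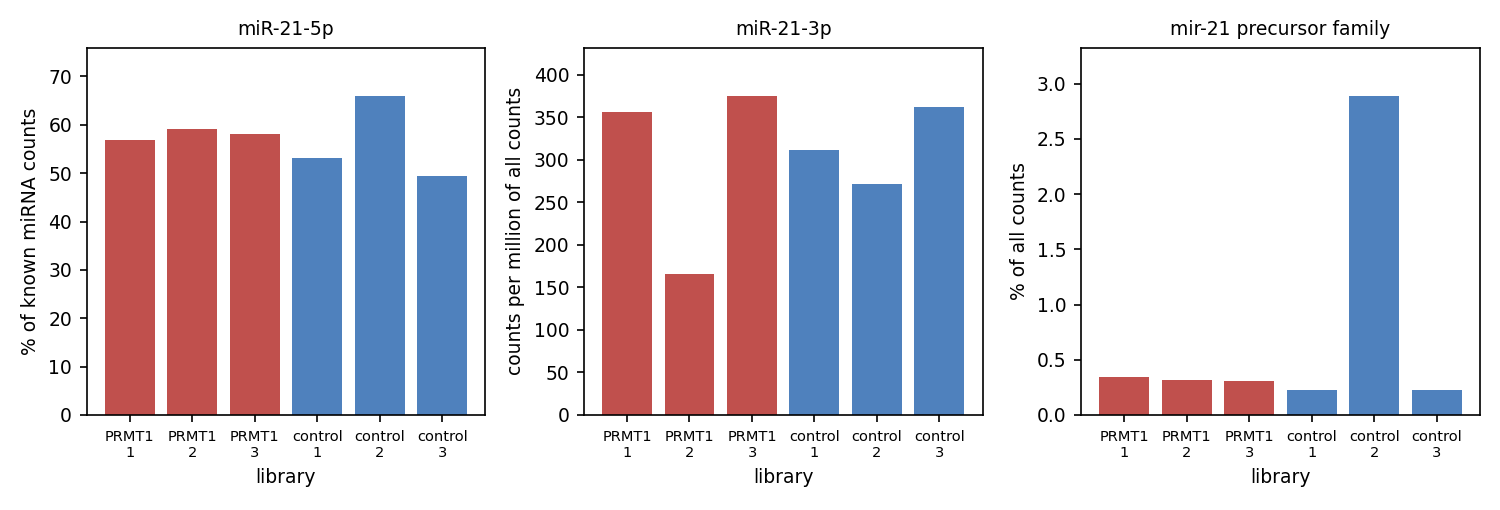
Levels of the miR-21 entries in each library: miR-21-5p as % of known miRNA counts (left), miR-21-3p as CPM of all counts (middle) and the mir-21 precursor family as % of all counts (right), with PRMT1 libraries in red and control libraries in blue. The precursor family reached 2.89% in control library 2, while miR-21-3p was lowest in PRMT1 library 2.

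Fitted over all known miRNAs with edgeR, after scaling of the libraries by trimmed mean of M-values (TMM), miR-21-5p had a log2 fold change of -0.08 for PRMT1 over control (SE 0.25). Without control library 2 this value was 0.27, the only omission of a library that turned its sign. Without control library 3 it was -0.29. With all libraries kept, the groups overlapped for both arms in TMM-scaled CPM, as they did for all but 10.2% of the miRNAs. When control library 2 was left out, the shares of miR-21-5p in the 3 PRMT1 libraries lay above both remaining control libraries. The same lack of overlap, in either direction, held for 28.1% of the 668 miRNAs.

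MiR-21-3p, the passenger strand, ranked 71 to 97 among known miRNAs. It had 8567, 4267 and 8988 counts in PRMT1 libraries 1 to 3, and 7633, 6798 and 8700 counts in control libraries 1 to 3. PRMT1 library 2 was the lowest of all, and the groups overlapped. After TMM scaling it averaged 553 ± 200.5 CPM in PRMT1 libraries and 594 ± 72.5 CPM in control libraries (SD, n = 3 each). Its fitted log2 difference was -0.10 for PRMT1 over control (SE 0.29, 95% interval -0.75 to 0.55, adjusted p = 0.970 with edgeR), 0.11 when PRMT1 library 2 was omitted and -0.18 when control library 2 was. It did not pass an adjusted p of 0.05, and 0% of the 668 tested miRNAs did with edgeR. An unadjusted p under 0.05 was reached by 36 miRNAs, or 5.39%, and DESeq2 called 4 of 1724 at an adjusted p of 0.05, or 0.232%. Expressed as CPM of the known miRNA counts other than miR-21-5p, miR-21-3p stood at 1379, 875 and 1765 CPM in PRMT1 libraries and at 1315, 1219 and 1489 CPM in control libraries, so the wide range in PRMT1 libraries was also seen with the dominant arm removed from the total.

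The hairpin was strongly biased towards its guide strand. There were 1.04, 0.607 and 1.28 reads of miR-21-3p per 1000 reads of miR-21-5p in PRMT1 libraries 1 to 3, and 1.16, 0.627 and 1.53 in control libraries 1 to 3. The number-2 library was the lowest of each group, and the groups overlapped. The 2 low values came from different sides of the ratio. PRMT1 library 2 had the fewest miR-21-3p counts, whereas control library 2 had the most miR-21-5p counts with a miR-21-3p count inside the range of the other libraries. From the lowest to the highest library the ratio spanned 1.33 on the log2 scale, and the widest Wilson 95% interval of the share of miR-21-3p in both arms was 0.0064 percentage points. Counting error therefore made up little of the spread.

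The arm ratio was compared with limma over 181 hairpins in which both arms were counted under exactly paired names. The denominator of this ratio for miR-21 is the miR-21-5p count, by which that entry was chosen. Its p-values are therefore given as descriptions only. The log2 difference of the 3p over 5p ratio was -0.15 for PRMT1 over control (SE 0.48, 95% interval -1.26 to 0.96, adjusted p = 0.910). A two-sided exact permutation test of this ratio gave p = 0.7, where 3 against 3 libraries allow 0.1 at the least. Leaving out control library 3 turned the difference to 0.13, leaving out PRMT1 library 2 turned it to 0.16, and it was -0.51 with control library 2 omitted. The threshold was passed by 0% of the 181 hairpins with limma, and 14, or 7.73%, had an unadjusted p under 0.05. Among these hairpins miR-21 ranked 8 from the most 5p-biased, with a mean log2 ratio of -9.99. Its neighbours in that order were the hairpins of miR-10b, encoded in the HOXD cluster, and of miR-186. Their 3p arms had 5 to 18 and 0 to 4 counts per library, so miR-21, with 4267 to 8988 counts of its 3p arm, had a far better counted ratio. Across hairpins, 104 had a higher 5p arm and 77 a higher 3p arm. The SD of the log2 ratio of miR-21 over the 6 libraries was 0.55, and the median over hairpins was 0.64.

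**Figure D2:**
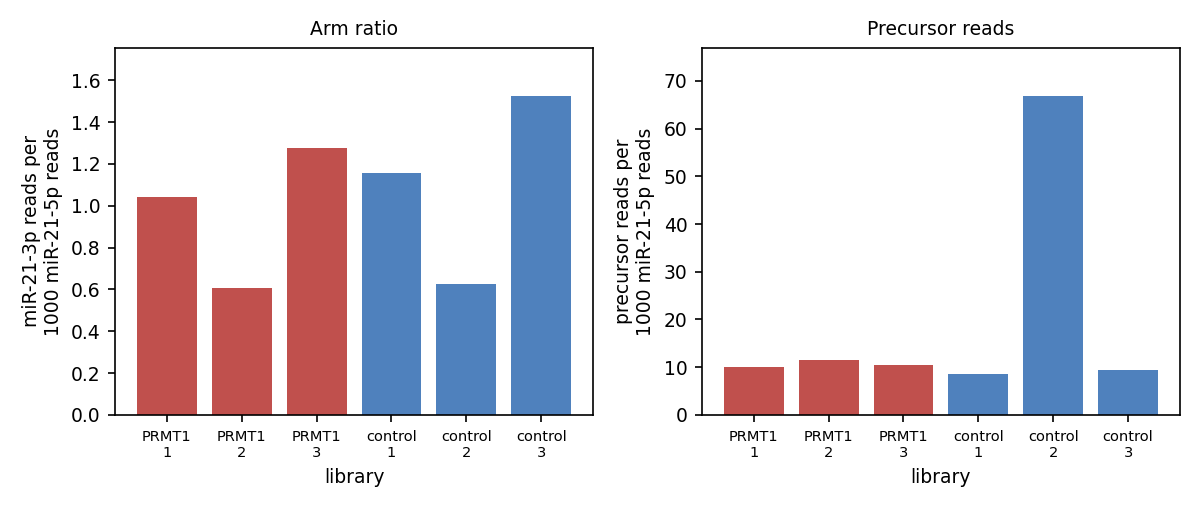
Reads of miR-21-3p (left) and of the mir-21 precursor family (right) per 1000 reads of miR-21-5p in each library, with PRMT1 libraries in red and control libraries in blue. The arm ratio was lowest in PRMT1 library 2 and control library 2, while precursor reads reached 66.9 per 1000 in control library 2 and 8.47 to 11.5 elsewhere.

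The mir-21 precursor family, RF00658, had the highest mean level of 157 precursor families, a rank that rested on control library 2. Over the other 5 libraries it averaged 2838 CPM of all counts, below the mir-221 family at 2947 CPM and above the mir-30 family at 2709 CPM. In control libraries 1 and 3 it ranked 3, behind both. It had 82819, 81130 and 73775 counts in PRMT1 libraries 1 to 3, and 55857, 725632 and 53683 counts in control libraries 1 to 3. As a share of all counts it stood at 0.345%, 0.315% and 0.308% in PRMT1 libraries and at 0.228%, 2.89% and 0.224% in control libraries. Control library 2 held 9.39 times the median of the other 5 libraries, and its Wilson 95% interval of 2.89% to 2.90% covers counting error only. How reads were divided between the mature and the precursor classes is not given in the sources used here, so a precursor read need not be a read of an uncut hairpin.

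Set against the guide strand, there were 10.1, 11.5 and 10.5 precursor reads per 1000 miR-21-5p reads in PRMT1 libraries, and 8.47, 66.9 and 9.42 in control libraries. Control library 2 stood far above the other libraries on this scale also, so its precursor reads were raised by more than its miR-21-5p reads. In 5 libraries precursor reads were 0.839% to 1.14% of the reads of the 3 miR-21 entries, and in control library 2 they were 6.27%. 

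The fit over entries of all classes gave RF00658 a log2 fold change of -2.08 for PRMT1 over control (SE 1.11). This value rested on control library 2, without which it was 0.53. As background, from which nothing is read for RF00658, 0% of the 1730 entries in that fit passed an adjusted p of 0.05 with edgeR, while 64, or 3.7%, had an unadjusted p under 0.05 and DESeq2 called 10 of 4200, or 0.238%. With all libraries kept the groups overlapped for RF00658, and 7.51% of entries had groups without overlap. Without control library 2 the 3 PRMT1 libraries lay above both remaining control libraries, with means of 0.322% and 0.226% of all counts. That is no more than many other families showed, since 29.6% of 71 tested precursor families and 20.9% of entries of all classes did not overlap between groups either when this library was left out.

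**Figure D3:**
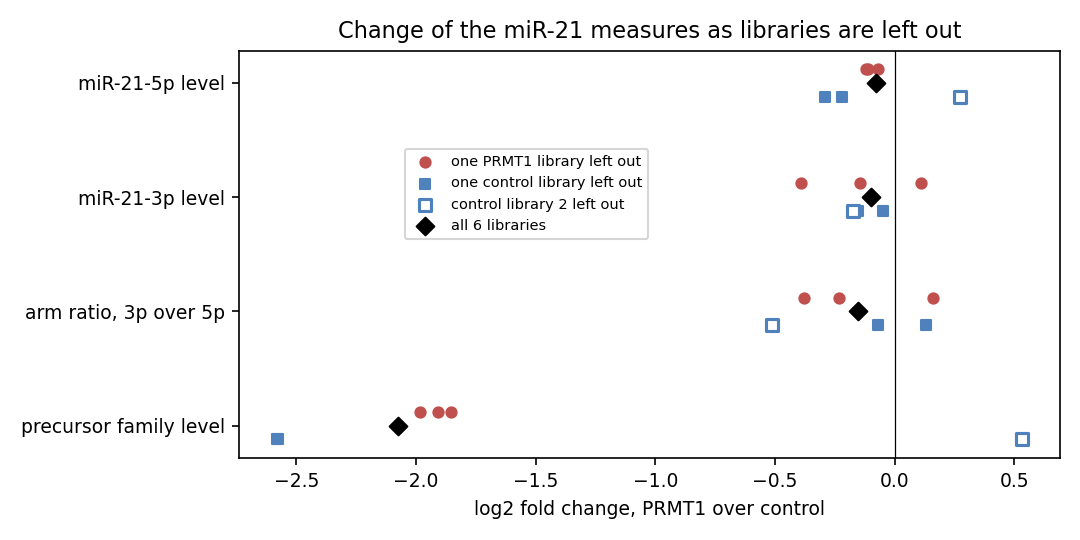
Log2 fold changes of PRMT1 over control for the 4 miR-21 measures (rows) with all 6 libraries (black diamonds) and with 1 library left out (red circles for PRMT1, blue squares for control libraries, open square for control library 2). The value of the precursor family moved to 0.53 from -2.08 when control library 2 was left out.

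Other precursor families did not share the rise of RF00658 in control library 2 as a class. The remaining families summed to 1.74%, 1.47% and 1.49% of all counts in PRMT1 libraries, and to 1.53%, 1.71% and 1.54% in control libraries. The most abundant of them, in order, were mir-221, mir-30, mir-27, mir-23 and the mir-8/mir-141/mir-200 family, at 1.03, 1.17, 0.887, 1.21 and 1.26 times the median of the other libraries in control library 2. Of the 41 other families with a mean of at least 10 CPM of all counts, 39 lay between 0.5 and 2 times that median, and the median over these families was 1.17. The 3 families of largest ratio were mir-137, mir-21 and mir-96.

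The mir-137 family was the most extreme. It had 57, 59 and 34 counts in PRMT1 libraries 1 to 3, and 38, 10477 and 38 counts in control libraries 1 to 3, a ratio of 264 for control library 2. Its mature arm miR-137-3p, a neuronal and tumour-suppressive miRNA, had 8142, 8391 and 5984 counts in PRMT1 libraries, against 8273, 11087 and 5562 in control libraries. As for miR-21, the mature guide was highest in control library 2, but by far less than the precursor family. The mir-96 family, with a ratio of 4.17 in control library 2, did not single it out, with 605, 130 and 654 counts in PRMT1 libraries and 67, 528 and 97 in control libraries. Over 507 entries of all classes with a mean of at least 10 CPM, 5 had a ratio at least as high as RF00658, itself included, and the median ratio was 0.920. The composition of control library 2 moved with these values, and its part in them was not tested.

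**Figure D4:**
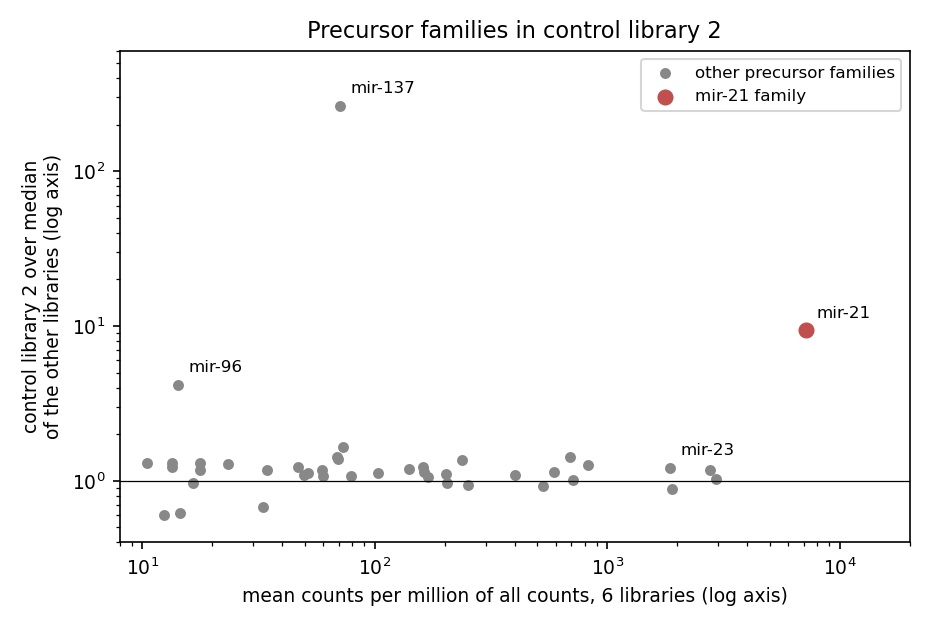
Each point is a precursor family with a mean of at least 10 CPM of all counts, placed by its mean over the 6 libraries (x axis, log) and by its level in control library 2 divided by the median of the other 5 libraries (y axis, log). The mir-21 family (red) lay at 9.39 and mir-137 at 264, while 39 of the 41 other families lay between 0.5 and 2.

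MiRNAs with profiles most like those of the arms were found by the root mean square difference of centred log2 TMM-scaled CPM over the 6 libraries, among the 158 other miRNAs with a mean of at least 100 CPM. All profiles share the scaling factor of each library, and this likeness is a description. For miR-21-5p the closest were miR-19b-3p (0.081), a member of the miR-17-92 cluster, miR-221-3p (0.101), miR-582-5p (0.106), let-7f-5p (0.139) and miR-200b-3p (0.148). The level of miR-19b-3p was 984, 901 and 1015 CPM in PRMT1 libraries and 850.5, 1404 and 726.5 CPM in control libraries, highest in control library 2 and lowest in control library 3, as for miR-21-5p. The median difference over all 158 was 0.383.

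For miR-21-3p the closest were miR-27b-3p (0.073), miR-15b-3p (0.128), miR-376c-3p (0.179), miR-127-3p (0.204) and miR-429 (0.206). MiR-27b-3p was at 7081, 4488 and 9970 CPM in PRMT1 libraries and 7796, 6580 and 8149 CPM in control libraries, lowest in PRMT1 library 2 and highest in PRMT1 library 3. MiR-27b-3p and its near-identical paralogue miR-27a-3p could share reads. The 2 arms of the miR-21 hairpin were not alike by this measure, with a difference of 0.503. MiR-21-3p ranked 108 of 158 in likeness to miR-21-5p, and miR-21-5p ranked 101 of 158 in likeness to miR-21-3p.

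**Figure D5:**
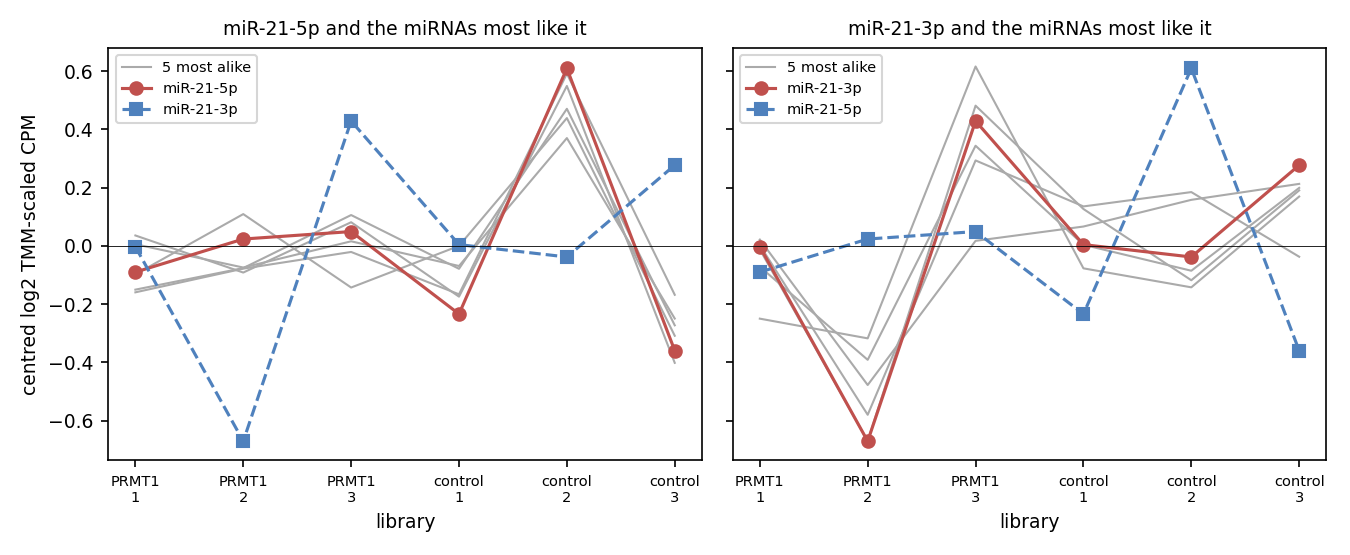
Centred log2 TMM-scaled CPM by library for miR-21-5p (left) and miR-21-3p (right), each in red with the 5 miRNAs most like it in grey and the opposite arm in dashed blue. MiR-21-5p was highest in control library 2, whereas miR-21-3p was lowest in PRMT1 library 2.

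MiR-590-5p, which shares the seed of miR-21-5p, was rare. It had 373, 224 and 70 counts in PRMT1 libraries 1 to 3, and 72, 154 and 129 counts in control libraries 1 to 3, and the groups overlapped. That is 45.4, 31.9 and 9.95 reads per 1000000 miR-21-5p reads in PRMT1 libraries, against 10.9, 14.2 and 22.6 in control libraries. The seed could be searched only in the 1533 of 1727 known names with a RefSeq sequence. Among these, almost all counted reads with this seed were those of miR-21-5p. The opposite arm, miR-590-3p, had 9363, 5930 and 8343 counts in PRMT1 libraries and 9712, 9507 and 6663 in control libraries. MiR-590 was thus biased towards its 3p arm, in contrast to miR-21.

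Of the miRNAs listed with miR-21-5p as promoting epithelial-mesenchymal transition or fibrosis, 11 of 14 were tested, 1 having no reads in any library, and 0 passed the threshold with edgeR, with 3 above and 8 below 0 and a median log2 fold change of -0.12. Over all 668 tested miRNAs, 360 lay above and 308 below 0, with a median of 0.04. The most abundant members after miR-21-5p were miR-222-3p, a repressor of the cell-cycle inhibitor p27 (log2 0.07, SE 0.17), miR-92a-3p of the miR-17-92 cluster (log2 -0.16, SE 0.22) and miR-31-5p (log2 -0.03, SE 0.18). Of the 14 miRNAs listed as induced by STAT3, AP-1 or NF-kB, as miR-21 is, 14 were tested, with 3 above and 11 below 0 and a median of -0.09, and 0 passed. Both lists hold miR-21-5p, miR-155-5p, miR-221-3p, miR-222-3p, miR-9-5p and miR-92a-3p, so their counts are not separate observations. MiR-21-5p is counted as tested and below 0 in both, although it was chosen by its counts and its value is a description only. Without control library 2 that value was 0.27. MiR-146a-5p, a brake on NF-kB signalling, was the most abundant of the second list beyond the names already given (log2 -0.20, SE 0.15).

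Passenger strands of the abundant hairpins, a list that includes miR-21-3p, had 12 of 16 tested members above 0 and a median log2 fold change of 0.12. Over all 668 tested miRNAs, 360 lay above 0, with a median of 0.04. Of the passenger strands, 0 passed the threshold. MiR-31-3p was the most abundant, at 1246 ± 70.7 CPM in PRMT1 libraries and 1172 ± 316 CPM in control libraries (SD, n = 3 each), and was followed by miR-21-3p. MiR-27a-5p came next (log2 0.36, SE 0.78), with 255.6, 210.0 and 330.1 CPM in PRMT1 libraries and 273.4, 313.4 and 33.3 CPM in control libraries, where control library 3 was far below the others. For let-7a-3p the log2 value was -0.09 (SE 0.26).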

How the data were processed

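Small RNA was counted in 6 BEAS-2B libraries, 3 per group. The deposited counts were whole reads per entry, not normalised, and the authors' deposited TPM column differed from CPM of the library total by at most 0.005 and served only for that comparison. Per the submitters' processing notes, HISAT, Bowtie2 and RSEM were used with GRCh37.p13, and no tool version is given. Per the labels' protocols, mRNA was enriched or rRNA depleted, although the tables hold small RNA classes. How reads matching several entries were divided, and whether strand was used, is not given in the sources used here. Entries absent from a table were taken as 0.

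Known miRNAs (1727 names, 668 after filterByExpr) and entries of all classes were fitted in edgeR 4.0.16 (R 4.3.3) with TMM scaling and tested by quasi-likelihood with robust dispersion. Adjusted p-values are Benjamini-Hochberg values over all tested entries. SEs were derived from each log2 fold change and its F statistic. Log2 arm ratios, with 0.5 added to each count, were fitted with limma 3.58.1 over hairpins with at least 100 counts in every library and each arm seen in 3 libraries. Both fits were tested on simulated data. Libraries were not copies, with a smallest chi-square per degree of freedom of 375.3 between any pair. MiRNA sequences came from RefSeq (GRCh38.p14), in which 1533 of 1727 names matched. Gene annotation was that of GENCODE 29 (GRCh38), whereas the processing notes name an older build, so no coordinate was taken from the files.

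Members and lists were chosen with earlier results of these data known. Names beyond the members followed a rule written with them: miRNAs sharing the seed, the 5 closest profiles, the 5 most abundant and 3 most raised precursor families, the 9 next most abundant miRNAs, neighbours in arm ratio, and the most abundant members of each list. MiR-137-3p was added after its values were seen. Alternatives were other scalings, DESeq2 1.42.0, limma-voom, other filters and denominators, the replicate block and omission of each library.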

Additional observations from a re-analysis of the deposited data

How the results depend on the processing

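With all libraries kept, the log2 fold change of miR-21-5p ran from -0.23 to 0.05 over 10 other settings, turning positive with library size scaling alone (0.0457), and that of miR-21-3p from -0.21 to -0.07. Leaving out single libraries gave -0.29 to 0.27 for miR-21-5p, -0.39 to 0.11 for miR-21-3p, -0.51 to 0.16 for the arm ratio and -2.58 to 0.53 for the precursor family, and the positive values of miR-21-5p and the precursor family came without control library 2. MiR-21-3p did not pass the threshold under any setting run for it. Nor did the arm ratio, but its p-values are descriptions only, since miR-21-5p, its denominator, was chosen by its counts. Other settings gave -1.97 to -0.68 for the precursor family, and -0.15 for the arm ratio. As log2 of the PRMT1 mean over the control mean, the share of miR-21-5p among known miRNA counts was 0.05 (-0.05 against all counts, -0.04 to 0.18 without single libraries), the share of precursor reads was -1.79 (-0.79 within the precursor class, -2.27 to 0.51 without single libraries) and precursor reads per miR-21-5p read were -1.40 (-1.83 to 0.26 without single libraries). Deviations of same-numbered libraries had correlations of -0.143, 0.177 and -0.149. These values are too few to settle whether replicate numbers pair the libraries. With the replicate block the values were -0.01 for miR-21-5p, -0.16 for miR-21-3p, -0.15 for the arm ratio and -0.68 for the precursor family. The cause of the last shift was not tested. With this block 1 known miRNA, no member, was called. The known miRNA fit also called 9 with no filter, 4 with DESeq2 and 1 without PRMT1 library 1, and miR-21-3p was not among them. Counting error was small beside the spread between libraries for all 3 members.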
